A study of Homo sapiens with 2 samples.

Results

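MiR-320, miR-484 and the mirtrons miR-877, miR-1226 and miR-1229 are microRNAs (miRNAs) known for reaching Dicer without the nuclear nuclease Drosha. They were described here in A375 cells, an established human melanoma line, by small RNA sequencing. All table entries of the hairpins mir-320a to mir-320e, mir-484, mir-877, mir-1226 and mir-1229 were taken, both arms where both were listed. These were 14 entries from 11 hairpins, or 12 of the 1497 mature names in the table, which carry the species prefix of human miRNAs there (hsa-miR-320a, hsa-miR-320b, hsa-miR-484, hsa-miR-877-5p, hsa-miR-1226-3p, hsa-miR-1226-5p, hsa-miR-1229-3p and others) and are written without it below. The hairpins were chosen by how they are known to be made and not by their values, although earlier results of these data were known. Processing by Drosha was not measured. The study profiled 1 group of 2 libraries, replicate 1 and replicate 2. The cells had been seeded 24 h before they received DMSO, the usual solvent of small-molecule drugs, for 48 h. No genotype, drug or other treatment was labelled, so there was no condition to compare and the libraries served as the only measure of error.

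A typical miRNA is cut from a long primary transcript by the Microprocessor, the complex of Drosha and DGCR8, exported as a hairpin and cut again by Dicer into a short duplex. One strand of that duplex is kept by an Argonaute protein and pairs with messenger RNAs mainly through its seed, bases 2 to 8. MiR-320 and miR-484 are known from mammalian cells as products of short capped transcripts whose start is already the end of the hairpin, so no first cut is needed. That capped origin is best known for the miR-320a hairpin and is taken over by name for its relatives miR-320b to miR-320e. Mirtrons are short introns that the spliceosome releases and that fold, after debranching, directly into a Dicer substrate.

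The hairpins of the mirtrons are shown because their ends can be set against annotated introns. RefSeq hairpins of the 3 mirtrons (GRCh38.p14) are given from the 5′ to the 3′ end, with the first and last bases, GU and AG, in capitals as the letters of a splice donor and acceptor.
mir-877: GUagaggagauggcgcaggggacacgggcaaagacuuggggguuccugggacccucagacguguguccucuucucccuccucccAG
mir-1226: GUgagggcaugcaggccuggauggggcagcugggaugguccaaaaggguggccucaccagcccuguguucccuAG
mir-1229: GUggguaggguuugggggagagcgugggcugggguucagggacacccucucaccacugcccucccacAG
The hairpin mir-877 lies at chr6:30584332-30584417 on the plus strand and spans, end to end, an intron of ABCF1, which encodes a ribosome-associated ATP-binding protein. The hairpin mir-1226 at chr3:47849555-47849629 on the plus strand spans an intron of DHX30, an RNA helicase gene. The hairpin mir-1229 at chr5:179798278-179798346 on the minus strand spans an intron of MGAT4B, which encodes an N-glycan-branching enzyme. In GENCODE 29 the ends were those of an intron in 3 ABCF1, 6 DHX30 and 9 MGAT4B transcripts. All 3 mirtrons were thus whole introns by the annotation, against 15 of the 866 table hairpins that could be placed by RefSeq, these 3 included (1.73%). The 3 were chosen as known mirtrons, so that they span introns follows from the choice and is not a result. Of the 866, 24 began with GU and ended with AG (2.77%), and all 15 whole-intron hairpins were among them.

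The mature miRNAs, also from RefSeq, are shown because their seeds decide which of them could share targets. Capitals mark the seed.
miR-320b: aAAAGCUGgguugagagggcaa
miR-320c: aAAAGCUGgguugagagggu
miR-320d: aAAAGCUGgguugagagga
miR-320e: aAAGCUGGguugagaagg
miR-484: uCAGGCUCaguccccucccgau
miR-877-5p: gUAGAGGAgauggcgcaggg
miR-877-3p: uCCUCUUCucccuccucccag
miR-1226-5p: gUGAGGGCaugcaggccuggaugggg
miR-1226-3p: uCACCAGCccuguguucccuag
miR-1229-5p: gUGGGUAGgguuugggggagagcg
miR-1229-3p: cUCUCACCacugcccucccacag
RefSeq sequences were matched for 11 of the 12 names, and miR-320a is named only. MiR-320b, miR-320c and miR-320d carried 1 seed, AAAGCUG, and differed only at the 3′ end: miR-320b and miR-320c shared their first 19 bases, and miR-320d shared its first 18 with either. The listed miR-320e begins a base later, which gives it another seed, AAGCUGG. MiR-4429, with the miR-320b seed, had no entry in the table used here. MiR-484 shared its seed with miR-3155a and miR-3155b, which together had 0.0924 RPM in replicate 1 and 0.194 RPM in replicate 2. Each of the 6 mirtron arms had a seed found in no other mature name among the 1317 in the table with a sequence.

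The ends of the mature arms follow the hairpins. In the mirtrons, miR-877-5p, miR-1226-5p and miR-1229-5p all begin at the first base of the intron, and miR-877-3p, miR-1226-3p and miR-1229-3p all end at its last base. Among 5p arms of the table with a RefSeq hairpin, 24 of 511 began at the first base of the hairpin (4.70%), and among 3p arms 88 of 521 ended at the last (16.9%). These shares depend on how long a hairpin was annotated. MiR-484 begins at base 8 of its hairpin. The miR-320 relatives begin at bases 41 to 44, on the 3p side, and end 9 to 12 bases before the hairpin does. The GC content of mirtron arms had a median of 65.1%, that of the miR-320 relatives and miR-484 of 50.0%, and that of all 1317 names of 50.0%. The mirtron hairpins were 69 to 86 bases long with 62.8% to 66.7% GC, where all matched hairpins had a median of 81 bases and 52.5%. Their predicted folding energies, -35.4 to -39.8 kcal/mol, lay around the median of all matched hairpins, -37.9 kcal/mol.

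The hairpin mir-484 lies at chr16:15643294-15643372 on the plus strand, at the start of NDE1, a gene for a centrosomal protein of dividing cells. In GENCODE 29 it begins 27 bases downstream of the first base of an NDE1 transcript and lies in its first exon. The RefSeq start of NDE1 falls downstream of the hairpin, whose first base is 88 and whose last is 10 bases ahead of it. The hairpin mir-320a lies 61 bases from the start of POLR3D, a subunit gene of RNA polymerase III, on the opposite strand. The hairpin mir-320b-2 lies inside NVL on the same strand. The hairpins mir-320c-1 and mir-320c-2 lie inside ABHD3 and OSBPL1A on the opposite strand, and mir-320e inside PRKD2 on the same strand, and none of these overlaps an annotated exon. Neither mir-320b-1 nor mir-320d-1 lies in an annotated gene other than its own.

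Values are reads per 1000000 read assignments (RPM) as the authors deposited them. Whole read assignments could be recovered from them, 10816826 in replicate 1 and 15428446 in replicate 2, so that 1 read equals 0.0924 and 0.0648 RPM. Where a mature name had several hairpins, the highest entry was used. Of 7 miRNAs listed for melanocytes and melanoma, 6 passed 10 RPM in each library, beside 335 of all 1497 names (22.4%). The other, miR-211-5p, had 3 and 2 reads. This list does not by itself identify the cells. Of blood markers, miR-451a, which defines red cells, was seen in replicate 1 with 1 read, and its 0 reads in replicate 2 allow up to 0.194 RPM. MiR-144-3p and miR-223-3p had no entry, and the highest of the listed white blood cell miRNAs, miR-142-5p, had a mean of 2.21 RPM. MiR-486-5p, also abundant in red cells, stood at 171 and 200.1 RPM.

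MiR-320a was the most abundant, with 1232 RPM in replicate 1 and 953 RPM in replicate 2, a mean of 1092 ± 198 RPM (SD, n = 2) and rank 64 of 1497. MiR-484 followed with 402 RPM in replicate 1 and 463 RPM in replicate 2, a mean of 433 ± 42.8 RPM (SD, n = 2) and rank 99. The ranges of mean ± SD did not meet, and miR-320a was the higher in both libraries, by 3.06-fold and 2.06-fold. MiR-877-5p, the leading mirtron arm, had 129 RPM in replicate 1 and 73.6 RPM in replicate 2, a mean of 101 ± 38.9 RPM (SD, n = 2) and rank 170. MiR-484 exceeded it by 3.13-fold in replicate 1 and 6.29-fold in replicate 2.

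**Figure D1:**
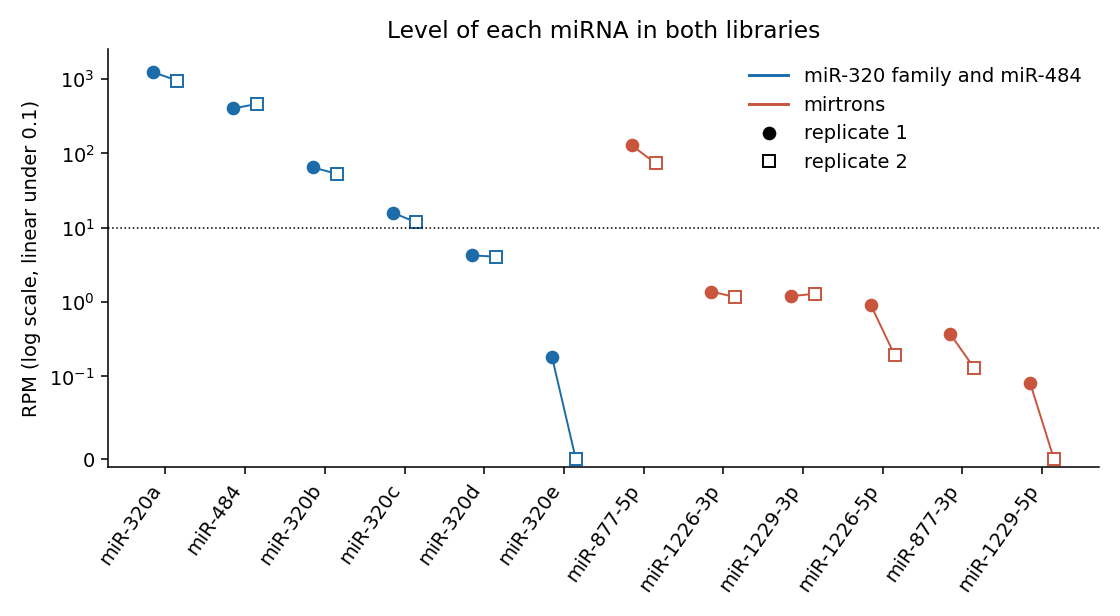
RPM of the 12 miRNAs in each library (filled circles, replicate 1; open squares, replicate 2), on a logarithmic axis that is linear under 0.1 RPM, with a dotted line at 10 RPM. MiR-320a, miR-484, miR-320b, miR-320c and miR-877-5p lie above the line in both libraries, and miR-320e and miR-1229-5p fall to 0 in replicate 2.

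The lower levels formed a ladder in the miR-320 family and a gap in the mirtrons. MiR-320b had 64.9 and 53.1 RPM, miR-320c 16.0 and 11.8 RPM, and miR-320d 4.25 and 4.08 RPM in replicates 1 and 2. MiR-320e had 2 reads in replicate 1 and 0 in replicate 2. Each step from miR-320a to miR-320d was larger than the spread between the libraries. After miR-877-5p, the next mirtron arms were miR-1226-3p with 1.39 and 1.17 RPM, from 15 and 18 reads, and miR-1229-3p with 1.2 and 1.3 RPM, from 13 and 20 reads. These 2 changed order between the libraries and were not told apart. MiR-1226-5p had 10 and 3 reads, miR-877-3p 4 and 2 reads, and miR-1229-5p 1 and 0 reads. The mean ± SD ranges of miR-877-5p and miR-320b met, although miR-877-5p was higher in both libraries. That order depended on taking the highest copy: with both entries of miR-320b added up, miR-877-5p stood at 0.999 and 0.694 times miR-320b in replicates 1 and 2, so their order was not resolved. Those of miR-1226-5p and miR-877-3p, of miR-877-3p and miR-320e, and of miR-320e and miR-1229-5p met as well.

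With 10 RPM or more in each library, 5 of the 12 names counted as expressed, 4 of 6 from the miR-320 and miR-484 hairpins and 1 of 6 mirtron arms, beside 335 of all 1497 names (22.4%). A level of 10 RPM stood for 108 and 154 reads. The median level was 2.72 RPM over the 12 names, 36.4 RPM over the 6 miR-320 and miR-484 names and 0.904 RPM over the 6 mirtron arms, against 0.588 RPM over all names. The mirtron names include both arms of each hairpin, while the other hairpins have a single listed arm. The counts and medians of these classes therefore compare unlike units. In level, the nearest miRNAs to miR-320a were miR-425-5p (1088 ± 189 RPM), miR-1307-3p (1101 ± 192 RPM) and miR-24-3p (1120 ± 204 RPM), each over n = 2 libraries. MiR-15a-5p (438 ± 3.68 RPM), miR-27b-5p (439 ± 70.3 RPM) and miR-340-5p (443 ± 120 RPM) stood nearest to miR-484. MiR-196a-3p (101 ± 12.6 RPM), miR-196b-5p (102 ± 9.56 RPM) and miR-143-3p (99.6 ± 6.71 RPM) stood nearest to miR-877-5p. These 9 were picked for the smallest difference in mean RPM, so their closeness to their partners is not a result.

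**Figure D2:**
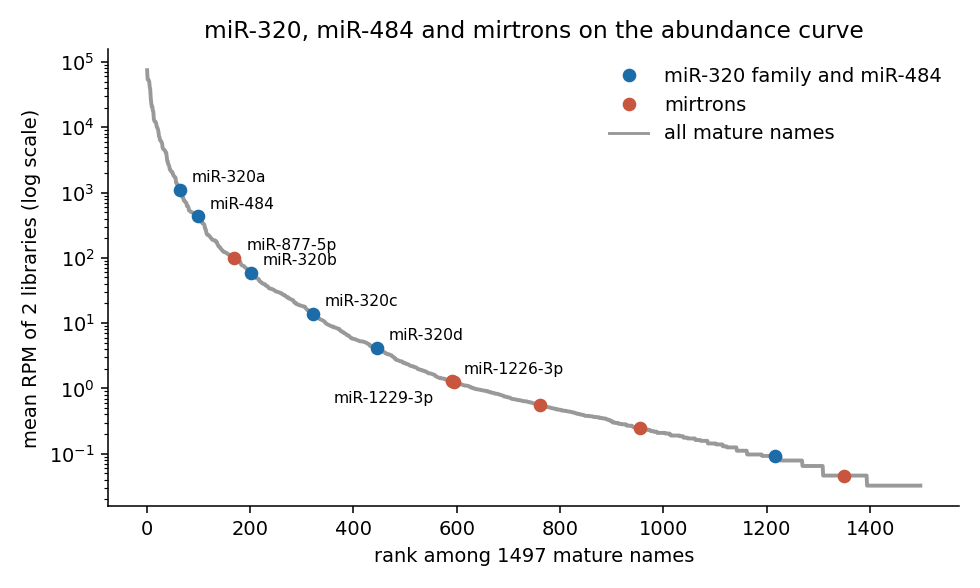
Mean RPM of the 2 libraries (logarithmic axis) against rank for all 1497 mature names (grey line), with the 12 miRNAs marked. MiR-320a lies at rank 64, miR-484 at 99 and miR-877-5p at 170, while the other mirtron arms lie at rank 591 or lower on the curve.

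As classes, the miR-320 family and miR-484, called the capped class here, summed to 1720 RPM in replicate 1 and 1485 RPM in replicate 2, against 133 and 76.4 RPM for the mirtron arms. The capped class thus exceeded the mirtrons by 13.0-fold in replicate 1 (95% exact interval 12.3 to 13.7) and 19.4-fold in replicate 2 (18.3 to 20.6), a mean of 16.2 ± 4.56 (SD, n = 2). The intervals cover counting error only, and they did not meet, so the libraries differed in this ratio by more than counting allows. With miR-320a and miR-484 alone as the capped class, the ratio was 12.3 and 18.5. All 12 names together held 0.239% and 0.199% of the RPM after copies were reduced. An exact sign-flip test over 2 libraries cannot give a two-sided p below 0.5, so none was run on this ratio. RPM of miRNAs with different sequences also carry ligation bias, which was not measured here.

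Within the miR-320 family, miR-320a held 93.5% of the reads in replicate 1 (95% exact interval 93.1 to 93.9) and 93.2% in replicate 2 (92.8 to 93.6). MiR-320b held 4.93% and 5.20%, miR-320c 1.21% and 1.15%, and miR-320d 0.323% and 0.400%. The intervals of each share met between the libraries. Intervals that meet do not exclude a difference in composition, and the shares were not tested between the libraries. The family as a whole had 1318 RPM in replicate 1 and 1022 RPM in replicate 2. MiR-320a exceeded miR-320b by 19.0-fold and 17.9-fold and miR-320c by 77.0-fold and 80.8-fold. With the entries of both copies added up, it exceeded miR-320b by 9.58-fold and 8.97-fold and miR-320c by 44.4-fold and 47.9-fold. Because these miRNAs differ by few bases at the 3′ end, reads can be assigned to the wrong relative, and the part of such reads in miR-320b to miR-320e was not tested.

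The copies of the family received unequal treatment in the table. MiR-320b was listed at 64.9 and 63.8 RPM for mir-320b-1 and mir-320b-2 in replicate 1, and at 53.1 RPM for both in replicate 2. MiR-320c was listed at 16.0 RPM for mir-320c-1 and 11.7 RPM for mir-320c-2 in replicate 1, and at 11.8 and 8.10 RPM in replicate 2, although the mature sequence is identical. MiR-320d was listed for mir-320d-1 only. How reads with several matches were placed is not stated in the submitters' notes, so the share of each copy was not resolved.

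The mirtrons differed in which arm was seen. The hairpin mir-877 gave 1391 reads of the 5p arm and 4 of the 3p arm in replicate 1, and 1136 and 2 in replicate 2. The 5p arm thus led by 348-fold (95% exact interval 136 to 1278) in replicate 1 and by 568-fold (157 to 4696) in replicate 2. In the hairpin mir-1229 the 3p arm led, with 13 reads against 1 of the 5p arm in replicate 1, a ratio of 13.0 (1.95 to 552), and 20 reads against 0 in replicate 2, where the 95% exact interval of the ratio begins at 4.94. In the hairpin mir-1226 the 3p arm was ahead by 15 to 10 reads in replicate 1, a ratio of 1.5 with an interval of 0.630 to 3.73 that includes 1, and by 18 to 3 in replicate 2, a ratio of 6.00 (1.75 to 31.8). A preference in mir-1226 was therefore not shown in both libraries. For the miR-320 hairpins and mir-484 a single mature name was listed, so their arms could not be compared.

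**Figure D3:**
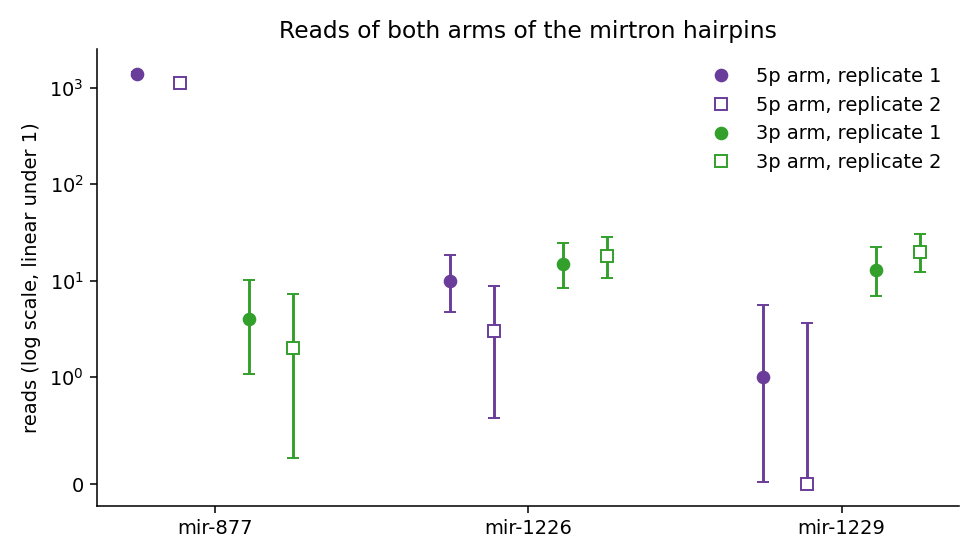
Reads of the 5p arm (purple) and 3p arm (green) of the mirtron hairpins mir-877, mir-1226 and mir-1229 in each library, on a logarithmic axis that is linear under 1 read; bars are 95% exact Poisson intervals. The 5p arm of mir-877 lies at 1391 and 1136 reads and its 3p arm at 4 and 2 reads, while in mir-1229 the 3p arm lies higher.

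On the log2 scale with 1 RPM added, the 5p over 3p ratio of mir-877 was 6.56 and 6.05. It was the only mirtron hairpin with a summed level of 10 RPM or more, and it was called one-sided, over 2-fold in both libraries, as were 186 of 210 such hairpins (88.6%). Those 186 were 107 toward the 5p arm and 79 toward the 3p arm. The ratio of mean RPM was 405 in mir-877, against a median of 30.0 between major and minor arm over the 210, and 23 of them had a larger one. Being one-sided was thus common, and the size of the ratio in mir-877 rested on 4 and 2 reads of its 3p arm. With no minimum on the level, mir-1229 was called as well, toward the 3p arm, as were 242 of 451 hairpins in either direction (53.7%), and mir-1226 was not. With 1 RPM added, the log2 ratio was -1.01 and -1.20 in mir-1229, so its call was narrow in replicate 1. In mir-1226 it was -0.311 and -0.859.

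Among the 15 hairpins that span a whole annotated intron, mir-877 stood first with 129 RPM in replicate 1 and 73.8 RPM in replicate 2 over both arms. It held 94.6% and 92.1% of the RPM of all 15. The hairpin mir-1226 stood second with 2.31 and 1.36 RPM, mir-3620 in ARF1 next with 1.76 and 1.56 RPM, and mir-1229 after it with 1.29 and 1.30 RPM. Of the 15, 1 reached 10 RPM in both libraries, mir-877, as against 222 of 851 placed hairpins that are not whole introns. None of the 12 whole-intron hairpins outside mir-877, mir-1226 and mir-1229 did. The median level was 0.208 RPM over the 15 whole-intron hairpins, mir-877 included, and 0.689 RPM over the 851 others.

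**Figure D4:**
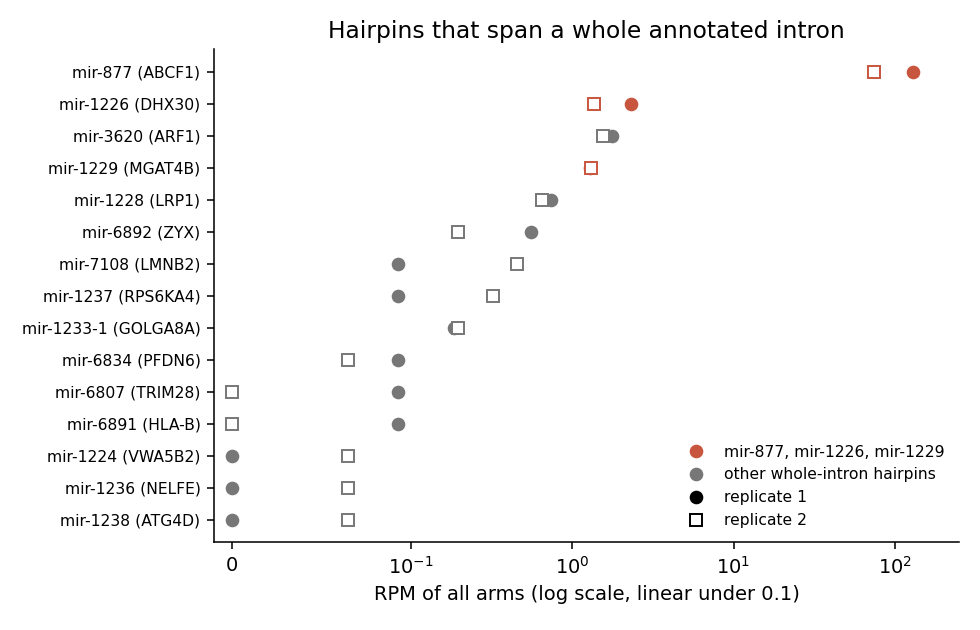
RPM of all listed arms for the 15 hairpins whose ends are those of an annotated intron, with the host gene in brackets (filled circles, replicate 1; open squares, replicate 2; logarithmic axis, linear under 0.1 RPM). The hairpin mir-877 lies near 100 RPM and all others lie below 3 RPM.

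Other miRNAs of Drosha-independent or disputed origin were looked at next. For 10 further mirtrons described early, from mir-1224 to mir-1238, 9 mature names had an entry, and none reached 10 RPM. These names include both arms of mir-1228 and of mir-1237, while mir-1225, mir-1227 and mir-1231 had no entry. The highest were miR-1228-3p with 0.740 and 0.583 RPM and miR-1234-3p with 0.277 and 0.194 RPM. Of 178 mature names from miR-6720 to miR-6895, many of them predicted mirtrons, none reached 10 RPM, and they summed to 60.0 RPM in replicate 1 and 53.6 RPM in replicate 2, less than miR-877-5p alone. The highest were miR-6724-5p (6.38 and 2.53 RPM) and miR-6840-5p (3.42 and 3.50 RPM). Of 10 names from miRNAs that overlap small nucleolar RNAs, 2 reached 10 RPM, miR-3607-3p with 142 and 41.4 RPM and miR-664a-3p with 15.3 and 20.9 RPM.

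The libraries were then compared by setting the reads of each miRNA against all other reads, library by library, in Fisher's exact test, two-sided. This compares these libraries and no condition. Of the 12 names, 9 had the 10 reads in sum that the test asked for. MiR-877-5p was 1.75-fold higher in replicate 1 (95% exact interval 1.61 to 1.89; Benjamini-Hochberg adjusted p = 2.7e-43), and 9 of the 335 expressed miRNAs lay farther from 0 in log2 ratio. MiR-320a was 1.29-fold higher in replicate 1 (1.26 to 1.32; adjusted p = 9.6e-101 in the exact test). MiR-484 went the other way, at 0.869-fold in replicate 1 over replicate 2 (0.837 to 0.903; adjusted p = 1.9e-12 in the exact test). MiR-320b (1.22-fold, adjusted p = 0.00048 in the exact test) and miR-320c (1.36-fold, adjusted p = 0.015) were higher in replicate 1 as well. MiR-320d, miR-1226-3p and miR-1229-3p did not pass, with adjusted p of 0.94, 0.87 and 0.95 in the exact test.

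An adjusted p under 0.05 was reached by 6 of the 9 names and by 300 of the 869 miRNAs tested (34.5%). A fold over 2 with that p was found in 1 of the 9, against 40 of the 869 (4.60%). It was miR-1226-5p, with 10 reads in replicate 1 and 3 in replicate 2 (adjusted p = 0.034 in the exact test), and with every miRNA tested, whatever its reads, its adjusted p was 0.058. A fold over 1.5 was found in miR-1226-5p and miR-877-5p, against 81 of the 869 (9.32%). Expressed miRNAs as a whole had a median log2 ratio of 0.10 toward replicate 1. Relative to it the log2 ratio was 0.70 for miR-877-5p, 0.27 for miR-320a, 0.19 for miR-320b, 0.34 for miR-320c and -0.31 for miR-484, each in the direction stated above, and that of miR-320d turned from 0.06 to -0.04.

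**Figure D5:**
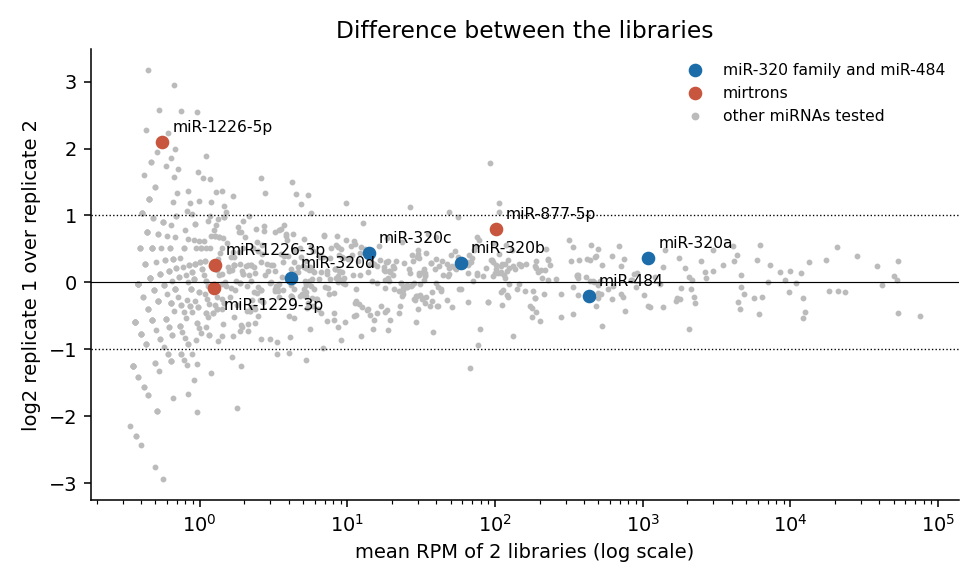
Log2 ratio of replicate 1 over replicate 2 against mean RPM (logarithmic axis) for the 869 miRNAs tested (grey) with 9 of the 12 miRNAs marked; dotted lines mark 2-fold. MiR-877-5p lies at 0.80 and miR-320a at 0.37 above zero, miR-484 at -0.20 below it, and miR-1226-5p at 2.10 among miRNAs of few reads.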

How the data were processed

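RPM, with decimal commas, were deposited by the authors for 1546 pairs of hairpin and mature name in 2 A375 libraries. CASAVA 1.8 and cutadapt 1.2.1 are named in the submitters' processing notes; aligner, miRNA release and genome build: not given in the sources used here. Columns sum to 1000000, and all values (100%) were whole multiples of the smallest within 0.01 reads, so reads were recovered. A read assigned to several hairpins would count for each of them in the total. How such reads were placed is not stated. Names with several hairpins were reduced to the highest, leaving 77.6% and 78.3% of the totals.

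Fisher's exact tests covered 869 miRNAs with at least 10 reads in sum (0.5 reads added for folds). The computation was tested on simulated data that held counting error only, without the further spread seen between these libraries. Python 3.11.15, scipy 1.17.1 and ViennaRNA 2.7.2 were used, with RefSeq sequences (GRCh38.p14) and GENCODE 29 (GRCh38); 866 of 1095 hairpins matched by symbol. Intervals and floors cover counting error only, as PCR reads are not independent molecules. The labels call the replicates independent but name no separate origin, so their spread may be technical. Members, lists and the rule for named miRNAs (all members, the 3 nearest in level to miR-320a, miR-484 and miR-877-5p, the top of each list) were chosen with earlier results of these data known; mir-3620 and miR-3155a and b were named after values were seen. Hairpins mir-3200 and mir-3202, which share only leading digits with mir-320, were left out.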

Additional observations from a re-analysis of the deposited data

How the results depend on the processing

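No paired analysis was possible because the 2 libraries form 1 group. The summed level of the 12 miRNAs was 1707 RPM, 1561 to 1853 RPM with a replicate left out, and 2191 RPM when RPM were rescaled to the total after copies were reduced. With copies summed, the share of miR-320a in its family was 88.2% instead of 93.4%, since the entries of miR-320b and miR-320c were added up. The mean ratio of miR-877-5p over miR-320b, 1.68, turned to 0.846 in that case. Of the 12 names, 2 reached 100 RPM in both libraries, beside 161 of all 1497 names. At 1 RPM it was 8 of the 12, and all names were not counted at that level, so this count has no background. With no minimum, 2 mirtron hairpins were called one-sided instead of 1. The count of names that differed between the libraries was 2 with a fold over 1.5 and 0 with no read minimum, where more miRNAs share the adjustment. In that last case miR-1226-5p alone had an unadjusted p under 0.05 with a fold over 2 (p = 0.011, Fisher's exact test), and no other tool was run. The log2 arm ratio of mir-877, 6.30, was 8.21 with 0.1 RPM and 3.39 with 10 RPM added. The sign of miR-320d between the libraries turned under scaling by the median ratio. The mean class ratio, 16.2, was 16.9 with copies summed, 15.4 with miR-320a and miR-484 alone, a choice made after seeing the data, and 13.0 to 19.4 with a replicate left out. Reads limit the arms of mir-1226 and mir-1229 and the levels of miR-320e and miR-1229-5p.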
